A study of Mus musculus with 2 samples.

Results

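Respiratory complex I, the NADH:ubiquinone oxidoreductase of the inner mitochondrial membrane, was followed in the adrenal gland through the protein-coding genes whose symbols begin with Ndufa, Ndufb, Ndufc, Ndufs or Ndufv and a digit, or with mt-Nd. The rule found 44 of 55536 annotated genes, 37 in the nuclear genome and 7 in the mitochondrial genome. It used symbols only and no measured value entered it, though it was set with earlier results of these data known. The study sequenced total RNA of the adrenal gland from females of the B6CASTF1/J strain, a cross of C57BL/6 and CAST mice, at an age of 36 days, in 2 libraries of 1 group with no treatment or other genotype. Library preparation began from 300 ng of RNA and used ribosomal RNA reduction, a directional kit and ERCC spike-ins. Replicate 1 held 35684781 expected counts and replicate 2 held 38701795. Labels differ on whether these are 2 animals, since numbers for the animals differ in the sample characteristics and are equal in the library descriptions, with 1 donor identifier for both, so the spread between libraries may not be a spread between animals. With 1 group there was no comparison of conditions and no test, and all values below are descriptions.

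Complex I passes electrons from NADH to ubiquinone and moves protons across the membrane. Its hydrophilic arm holds an N module, where NADH is oxidised, and a Q module, where ubiquinone is reduced, while proximal and distal membrane arms carry the proton pumps. The core membrane subunits are read from mitochondrial DNA and all other subunits from nuclear genes, so the complex needs transcripts from both genomes. In steroid-producing cells of the adrenal cortex, mitochondria also house the first enzyme of steroid synthesis, which sits in the same inner membrane.

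The tissue label was checked against marker genes. Summed levels of 7 adrenal cortex markers were 16361 and 16834 TPM in replicates 1 and 2, and 5 chromaffin cell markers summed to 1480 and 1110 TPM, where TPM is a level per transcript length. Markers of other tissues and cell types were also measured, since these carry mitochondria of their own. Skeletal muscle markers summed to 345 and 2.61 TPM in replicates 1 and 2, with 10 of 10 higher in replicate 1 and Myh4 at 0 in replicate 2. Brown fat markers summed to 928 and 880 TPM, adipocyte markers to 1468 and 1501 TPM, and liver markers to 37.6 and 2.62 TPM. Testis markers were at or near 0. In bulk tissue, fewer cells of a type and less RNA per cell cannot be told apart.

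All 44 genes were detected, at 1 TPM or more in both libraries. The median level of the 37 nuclear genes was 98.7 and 99.8 TPM in replicates 1 and 2, and that of the 7 mitochondrial genes was 4872 and 4318 TPM. The mitochondrial median was 49.4 times the nuclear median in replicate 1 and 43.3 times in replicate 2. It was 27.5 times the nuclear median in a second table made straight from the reads, described below. In that second table mt-Nd4l was at 121 TPM, against 5189 TPM here, which moved the mitochondrial median from mt-Nd2 to mt-Nd3. There mt-Nd2 itself was at 8425 TPM. The nuclear median stood at the 95.5th percentile of 11647 detected nuclear protein-coding genes, whose own median was 10.3 TPM, and 36 of 37 nuclear members lay above that median. Ndufa4l2 was the exception. In shares of all counts, the nuclear members took 0.270% and 0.266% and the mitochondrial members 2.40% and 2.26%.

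**Figure D1:**
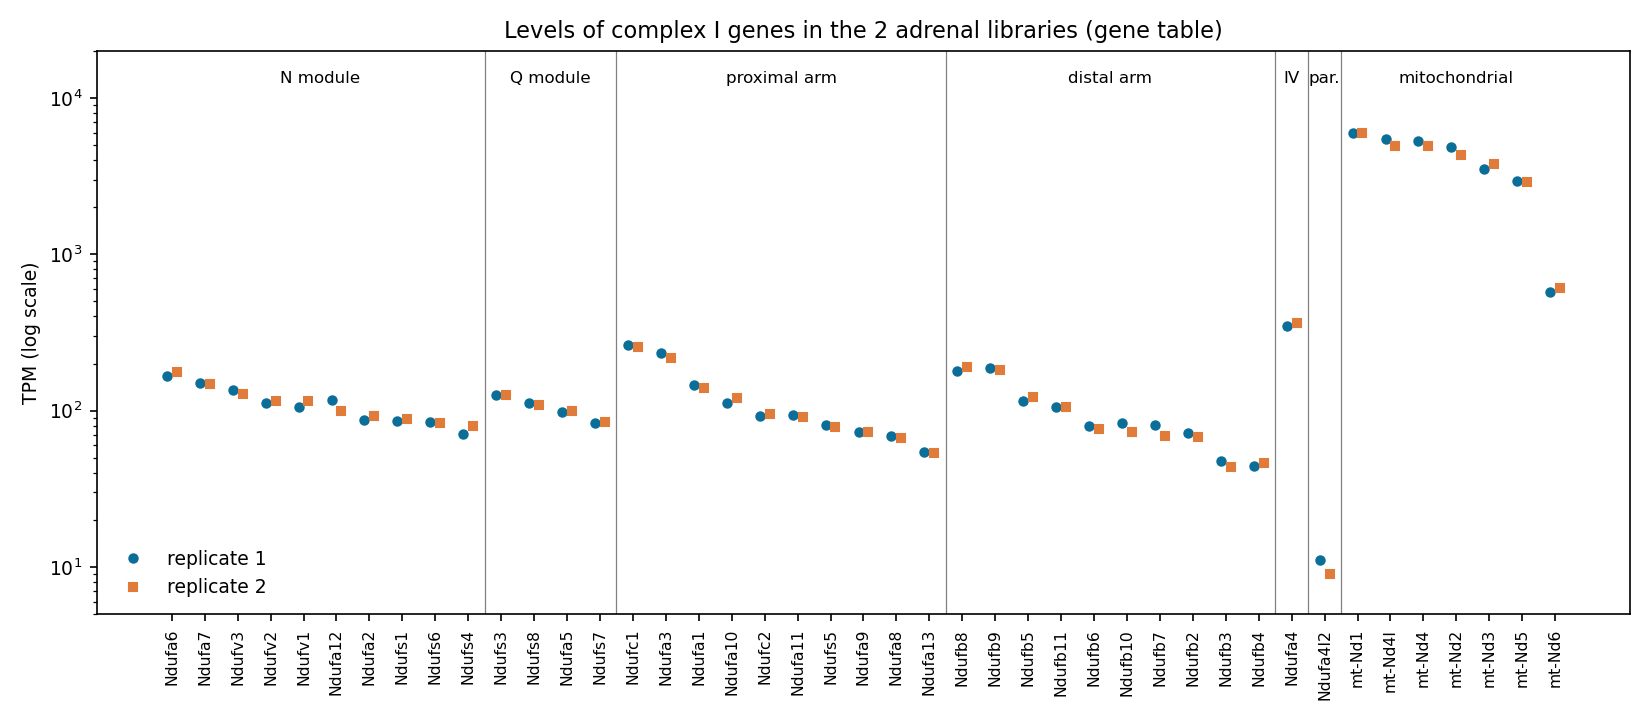
Levels of 43 of the 44 genes in TPM on a log scale, with replicate 1 as circles and replicate 2 as squares, grouped by module and ordered by mean level within it; IV marks Ndufa4, which belongs to complex IV, and par. its paralogue Ndufa4l2. The 35 nuclear subunits lie between 45.1 and 258.9 TPM on average, and all 7 mitochondrial genes lie above all of them, with mt-Nd6 lower than the others at 592 TPM.

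Among the 35 nuclear subunits left once Ndufa4 and Ndufa4l2 were set aside, the highest mean level, 258.9 TPM for Ndufc1, was 5.74 times the lowest, 45.1 TPM for Ndufb4. The SD of log2 TPM over these subunits was 0.61. The same SD was 0.57 over 4 nuclear subunits of complex II, 0.60 over 9 of complex III, 0.67 over 10 of complex IV and 1.56 over 15 of complex V. The value for complex V rests on Atp5g2, at 5.21 TPM here and 234 TPM in the read-derived table, and was 0.82 over the other 14. The subunits of complex I were thus spread about as widely as those of complexes II to IV. Complex I had a lower median level, 99.3 TPM, than the other complexes, at 142.7 TPM for complex II, 200.3 TPM for complex III, 275.2 TPM for complex IV and 169.8 TPM for complex V. Genes are not replicates, and this order was not tested.

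The 7 nuclear core subunits, which are conserved from bacteria, had a median level of 110.5 TPM, and the 28 accessory subunits, which surround them, one of 92.8 TPM. By module the medians of nuclear subunits were 109.6 TPM for N, 110.4 TPM for Q, 92.8 TPM for the proximal arm and 78.0 TPM for the distal arm. In the read-derived table the order of the arms turned, at 169 TPM for the proximal arm and 194 TPM for the distal arm. The modules overlapped widely in level, as the next paragraphs show gene by gene.

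In the N module, Ndufv1, which binds NADH and the flavin, was at 105.4 and 115.6 TPM in replicates 1 and 2. Ndufv2, an iron-sulfur subunit beside it, was at 112 and 116 TPM. Ndufs1, which carries iron-sulfur clusters on the way to the Q module, was at 86.4 and 87.9 TPM. Ndufv1 and Ndufv2 lay in the middle of the module, and Ndufs1 near its low end, above Ndufs6 and Ndufs4 only. Ndufa6, an accessory subunit of the LYR family that binds the acyl carrier protein, was the highest at 167 and 176 TPM. Ndufs4, an accessory subunit whose loss is a cause of Leigh syndrome in humans, was the lowest at 71.2 and 79.97 TPM. Its deposited TPM interval reached 74.4 TPM in replicate 1 and began at 74.5 TPM in replicate 2, so the intervals only just stood apart. The other members lay between these ends, Ndufa7 at 149 and 148 TPM, Ndufv3 at 136 and 128 TPM and Ndufs6, a zinc-binding subunit, at 84.6 and 83.55 TPM. Ndufa12 was at 117.6 and 99.9 TPM and Ndufa2 at 87.75 and 92.0 TPM. Ndufa12 was the member of the module with the widest gap between libraries.

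In the Q module, Ndufs3, a core subunit that helps hold this arm together, was at 125.8 and 125.2 TPM in replicates 1 and 2. Ndufs8, which holds iron-sulfur clusters, was at 112.7 and 108.2 TPM, and Ndufa5, an accessory subunit of this arm, at 98.7 and 99.8 TPM. Ndufs7, which carries the last iron-sulfur cluster before ubiquinone, was the lowest of the module at 82.9 and 84.9 TPM. These genes kept the same order in both libraries.

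In the proximal membrane arm, Ndufc1 was the highest nuclear subunit of the complex in the gene table, at 262 and 256 TPM in replicates 1 and 2. It was not the highest in the read-derived table, at 366 TPM beside 497 TPM for Ndufb8, nor over coding transcripts alone, at 92.6 and 86.3 TPM in replicates 1 and 2. Ndufa3 followed at 234 and 216 TPM, and Ndufa1, a small X-linked subunit, at 147 and 139 TPM. All 3 are short, single-span membrane proteins. Ndufa10 was at 112 and 120.5 TPM, Ndufc2 at 92.5 and 95.01 TPM and Ndufa11 at 93.1 and 90.5 TPM. Ndufs5 was at 80.9 and 78.3 TPM, Ndufa9, which sits near the junction with the hydrophilic arm, at 72.5 and 73.0 TPM, and Ndufa8 at 68.8 and 66.9 TPM. Ndufa13, also known as GRIM-19, was the lowest of the arm at 54.5 and 53.4 TPM.

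In the distal membrane arm, where most nuclear subunits carry the letter b, Ndufb8 at 180.1 and 191 TPM and Ndufb9 at 188 and 183 TPM were the highest, and their order turned between libraries. Ndufb5 was at 115 and 122 TPM and the X-linked Ndufb11 at 105.3 and 105.2 TPM. Ndufb6, Ndufb10, Ndufb7 and Ndufb2 lay between 68.3 and 82.8 TPM in both libraries. Ndufb3 at 47.6 and 43.6 TPM and Ndufb4 at 43.96 and 46.3 TPM were the lowest, and their order also turned. The value of Ndufb4 rests on how reads were divided with a copy of the gene, described below.

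Ndufb1, a further subunit of this arm, is not among the members, because the annotation lists its record, Ndufb1-ps, as a long non-coding RNA at a bidirectional promoter (chr12:101968090-101977068, minus strand, mm10). RefSeq places a protein-coding Ndufb1 inside that span, over 7643 bases. The record was at 71.3 and 58.2 TPM in replicates 1 and 2, within the range of the distal arm. Ndufab1, the acyl carrier protein that complex I contains, falls outside the symbol rule and was at 163.9 and 152.5 TPM.

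Ndufa4 was first described as a complex I subunit and is now assigned to complex IV. It was at 350 and 365 TPM in replicates 1 and 2, above all nuclear subunits of complex I and above the complex IV median. Its paralogue Ndufa4l2, known as a hypoxia-inducible gene and as a pericyte gene, was at 11.15 and 9.02 TPM. Ndufa4 exceeded it 31.4-fold and 40.5-fold. The deposited TPM intervals of Ndufa4l2 overlapped, from 9.84 to 12.7 TPM in replicate 1 and from 7.84 to 10.4 TPM in replicate 2. The 6 pericyte markers summed to 31.8 and 33.5 TPM, and their part in the level of Ndufa4l2 was not tested.

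The libraries differed little over these genes. Ratios were taken as replicate 1 over replicate 2 on the log2(TPM + 0.1) scale, and 0 of 44 genes were 25% or more higher in either library, beside 5.38% of 12280 genes that were that much higher in replicate 1 and 8.63% that were that much higher in replicate 2. None was 2-fold or more apart, beside 0.48% of genes higher in replicate 1 and 0.423% higher in replicate 2. The median log2 ratio was 0.01 over the nuclear members, 0.03 over the mitochondrial members and -0.04 over all genes. The SD of the log2 ratio was 0.10 over the nuclear members, 0.37 over all genes and 0.33 over the 9445 genes within the range of summed counts of the nuclear members, 592 to 19079. A level in TPM was higher in replicate 1 for 26 members and in replicate 2 for 18. Skeletal muscle markers differed most between these libraries among the lists examined, and their part in these ratios was not tested.

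The widest gap was that of Ndufa4l2, with a log2 ratio of 0.30 from 318 and 274 counts. It passed the 25% limit on 3 other scales, with a log2 ratio of 0.35 on each of TMM-scaled counts, DESeq2 size factors and the read-derived table. The next were Ndufa12 at 0.24, Ndufb7 at 0.23, Ndufb10 at 0.19, mt-Nd2 at 0.17 and Ndufs4 at -0.17. By the deposited TPM intervals, 6 members were higher in replicate 1 with intervals apart, beside 5.75% of all genes tested, and 3 were higher in replicate 2, beside 9.2%. Of these 9, mt-Nd2, mt-Nd3, mt-Nd4 and mt-Nd5 are among 6 mitochondrial members whose deposited TPM lay outside its own deposited interval in each library, so their intervals are not read further. Over the other 38 members, 3 were higher in replicate 1, Ndufa12, Ndufb10 and Ndufb7, beside 5.46% of 11837 genes whose TPM lay inside its interval. Over the same members, 2 were higher in replicate 2, Ndufs4 and mt-Nd6, beside 9.27% of these genes.

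**Figure D2:**
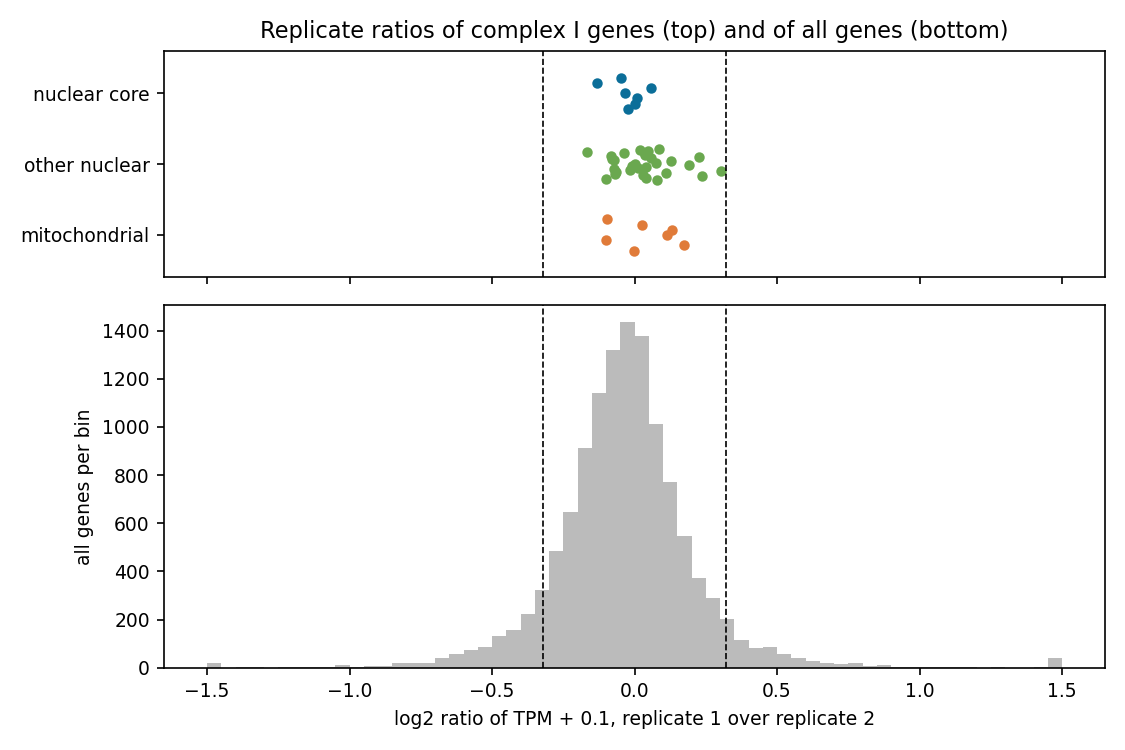
Log2 ratio of TPM + 0.1 in replicate 1 over replicate 2, for the nuclear core, other nuclear and mitochondrial members (top, 1 point a gene, offset vertically so that points do not hide each other) and for all 12280 genes with 200 or more summed counts (bottom, bars count genes, and values beyond the axis stand in the outermost bars). Dashed lines mark values 25% higher in either library; no member lies past them, and Ndufa4l2, at 0.30, comes nearest.

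The 7 mitochondrial members are the core membrane subunits. mt-Nd1, which faces the ubiquinone site, was at 5984 and 5999 TPM in replicates 1 and 2. The antiporter-like pumps mt-Nd2, mt-Nd4 and mt-Nd5 were at 4872 and 4318 TPM, at 5304 and 4903 TPM, and at 2935 and 2882 TPM in the 2 libraries. mt-Nd3 was at 3530 and 3787 TPM and mt-Nd4l at 5422 and 4956 TPM. The 6 genes on the plus strand of the reference lay within 2.06-fold of each other. mt-Nd6, the only protein gene on the other strand, was at 573 and 612 TPM. mt-Nd5, its neighbour, exceeded it 5.13-fold and 4.71-fold.

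The other 6 mitochondrially encoded proteins, subunits of complexes III, IV and V, had a median of 5951 TPM and ranged from 196 TPM for mt-Co2 to 11284 TPM for mt-Co1. In the gene table complex I transcripts thus lay inside the range of their mitochondrial neighbours. The low end of that range depended on the table. In the read-derived table mt-Atp8 is listed at 0 and mt-Co2 was next, at 1208 TPM. The lowest complex I genes there were mt-Nd4l at 121 TPM and mt-Nd6 at 1207 TPM. The mitochondrial genome is read as long precursors that are cut at tRNAs, and mt-Nd4l and mt-Nd4 remain on a shared messenger. They share 7 bases, shown in capitals at the end of the first and the start of the second (mm10, plus strand, chrM:10147-10173 and chrM:10167-10193).
mt-Nd4l: caaaatctcaacctactacaATGCTAA
mt-Nd4: ATGCTAAaaattattcttccctcacta
Their levels stood close in the gene table, with ratios to each other near 1 in both libraries. In the read-derived table they stood far apart, mt-Nd4l at 130 and 113 TPM and mt-Nd4 at 9049 and 8254 TPM in replicates 1 and 2. mt-Nd5 and mt-Nd6 meet tail to tail on opposite strands and share 14 bases, in capitals (chrM:13532-13565, plus strand, and chrM:13552-13585, minus strand).
mt-Nd5: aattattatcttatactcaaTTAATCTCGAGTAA
mt-Nd6: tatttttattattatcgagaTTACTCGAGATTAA
The kit marks strand, but whether the counting used it is not given in the sources used here, so reads over these bases may have been given to either gene. Where strand was not used, plus-strand reads over the rest of mt-Nd6 may also have counted for mt-Nd6, which was not tested.

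A second quantification, made straight from the reads, gave other levels. In it the nuclear median was 195.3 TPM and the mitochondrial median 5364 TPM. Taken as gene table over read-derived table on the log2(TPM + 1) scale, 17 members were 2-fold or more higher in the read-derived table, 16 nuclear genes and mt-Nd6, beside 16.5% of 12275 genes. One member, mt-Nd4l, was 2-fold or more higher in the gene table, beside 2% of these genes. The median log2 ratio of all genes was itself -0.72, so most of these differences are shared with the whole table. Relative to that median, 2 members remained past 2-fold. Ndufb4, at -2.05, was higher in the read-derived table, beside 0.774% of genes. mt-Nd4l, at 6.12, was higher in the gene table, beside 2.38% of genes.

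The 16 nuclear genes, by size of the ratio, were led by Ndufb4 at 43.96 and 46.3 TPM in the gene table, against 302 and 321 TPM in the read-derived table. Ndufs5 was at 80.9 and 78.3 TPM in the gene table, against 233 and 222 TPM. Ndufb8 was at 180.1 and 191 TPM, against 488 and 506 TPM. Ndufs3, Ndufb5 and Ndufv2 had log2 ratios of -1.42, -1.40 and -1.32. The remaining 10 were Ndufb2, Ndufs6, Ndufb3, Ndufa5, Ndufa12, Ndufa6, Ndufv1, Ndufb7, Ndufb11 and Ndufv3, with log2 ratios between -1.246 and -1.002. mt-Nd6 had 573 and 612 TPM in the gene table, against 1139 and 1274 TPM. Rank order over the 37 nuclear members was kept in part, with a Spearman rho of 0.77 between tables and 0.98 between libraries, over genes that share libraries and depth.

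Counts differed most for short genes. The effective length, the number of start positions a fragment can take, was the length less 99 bases in the alignment-derived tables and less 329 bases for longer transcripts in the read-derived table. The ratio of gene-table over read-derived counts had a median of 1.28 over the 12 nuclear members of shortest effective length, 1.14 over the next 12 and 0.993 over the 13 longest. Over the 37 genes its Spearman rho with effective length was -0.43. Ndufa1 had 1695 and 1723 counts in the gene table, against 512 and 575 in the read-derived table. mt-Nd4l, of 297 bases, had 38717 and 37960 counts in the gene table, against 219 and 187. mt-Nd3, of 348 bases, had 31699 and 36483, against 10009 and 12962, and its log2 ratio between replicates was -0.10 in the gene table and -0.37 in the read-derived table. For comparison, mt-Atp8, a complex V gene of 204 bases, had 27835 and 20270 counts in the gene table and is listed at 0 in the read-derived table.

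**Figure D3:**
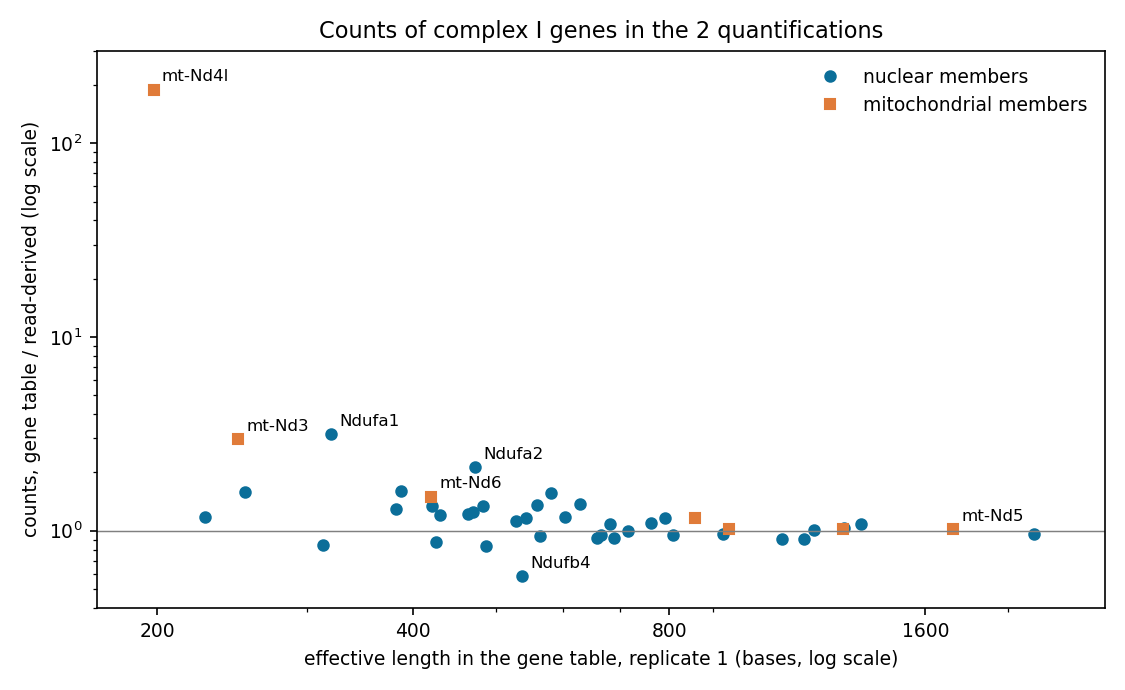
Counts in the gene table over counts in the read-derived table, summed over libraries and on a log scale, against effective length in bases, also on a log scale, with nuclear members as circles and mitochondrial members as squares. The grey line marks equal counts; mt-Nd4l lies at 189 and Ndufa1 at 3.14, while the longest members lie near 1, and Ndufb4 stands below the others at 0.584.

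**Figure D4:**
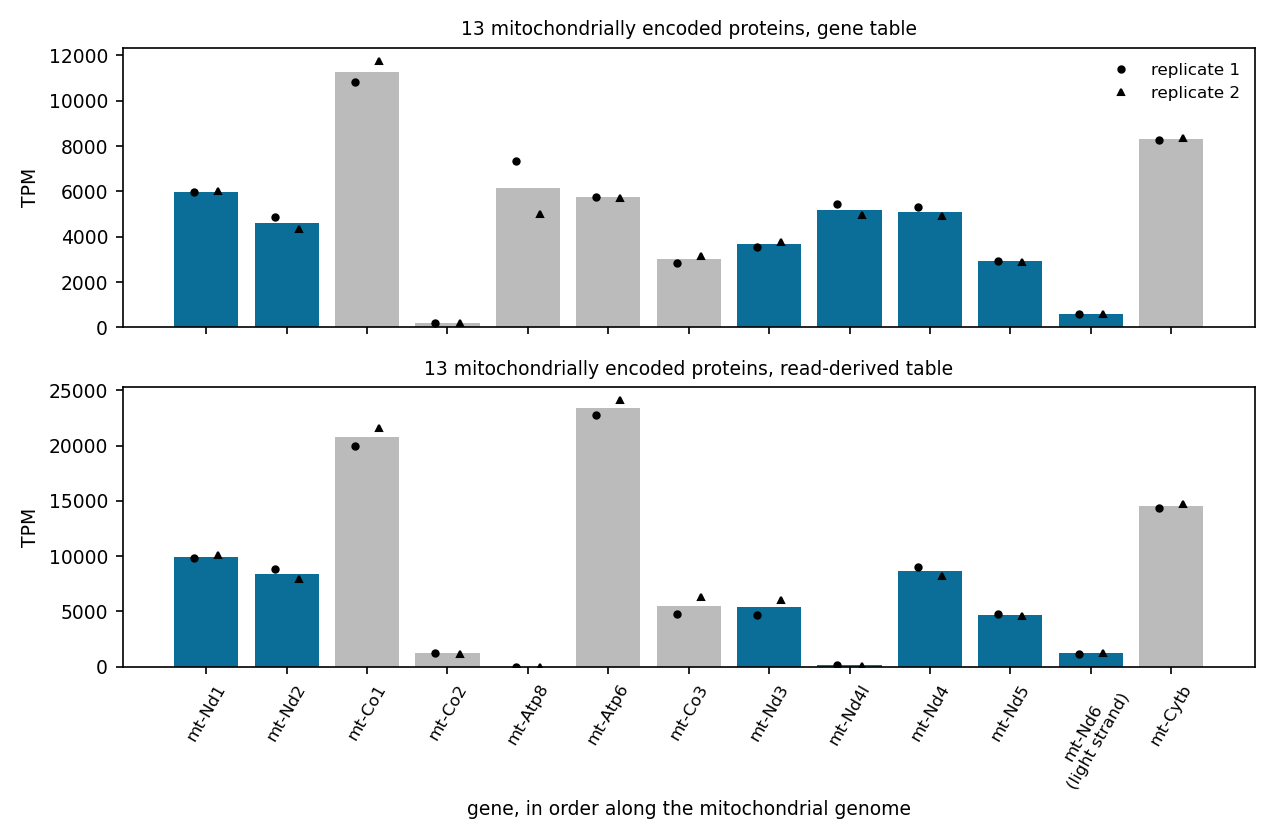
Levels in TPM of the 13 mitochondrially encoded proteins in genome order, in the gene table (top) and the read-derived table (bottom), where bars are means, circles replicate 1, triangles replicate 2, and complex I genes are coloured. mt-Nd4l is at 5189 TPM on average in the gene table, against 121 TPM in the read-derived table; the other complex I genes keep the order of their means, while in replicate 1 mt-Nd3 lies above mt-Nd5 in the gene table and below it in the read-derived table.

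Copies of the genes elsewhere in the genome can take reads. Requiring 95% identity or more over at least 200 bases, 8 nuclear and 5 mitochondrial members had such a copy, and 4 of these 13 copies held 100 or more summed counts. Ndufb4 was the member most affected. Its processed pseudogene Ndufb4c (chr15:73809507-73809896, minus strand, mm10) is identical over all 390 bases to Ndufb4-201 from position 95 to position 484, and its last 210 bases are also those of the retained-intron transcript Ndufb4-202. With no base to tell them apart over this stretch, the gene table gave Ndufb4c 59.9% and 61.6% of the counts of the pair, or 1271 and 1530 counts, against 850 and 953 for Ndufb4. The read-derived table lists Ndufb4c at 0 and gave Ndufb4 1456 and 1631 counts. Ndufb4 and its copy summed to 165 and 182 TPM in replicates 1 and 2 in the gene table, among the higher levels of the distal arm. The TPM of the copy is per its own 390 bases, shorter than Ndufb4-201. The level of Ndufb4 with these counts at its own length was not computed. These values are uncertain in either table.

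Ndufs5 and Ndufa12 have copies that differ at few bases. BC002163 (chr16:42955631-42955949, plus strand) matches Ndufs5-201 over 319 bases with 2 mismatches, T173C and A197G, with the base of the gene first and positions counted from the 5′ end of the transcript. Windows around them are shown with the differing base in capitals.
Ndufs5 at T173C: gcagaacagccctaTaagaacgccgctcg
BC002163 at T173C: gcagaacagccctaCaagaacgccgctcg
Ndufs5 at A197G: gctcggtgccacgcAtttgaaaaagagtg
BC002163 at A197G: gctcggtgccacgcGtttgaaaaagagtg
The gene table gave BC002163 48.85 and 42.5 TPM in replicates 1 and 2, or 23.8% and 21.9% of the counts of the pair, while the read-derived table lists it at 0. Gm15920 (chr5:130188395-130188796, plus strand) matches Ndufa12-201 over 402 bases with 2 mismatches, A225G and T504C.
Ndufa12 at A225G: gaagacaaatatggAaataaatactacga
Gm15920 at A225G: gaagacaaatatggGaataaatactacga
Ndufa12 at T504C: attcatgaatgggtTccaccttcgacacc
Gm15920 at T504C: attcatgaatgggtCccaccttcgacacc
Here both tables gave the copy reads, 25.1 and 23.0 TPM in the gene table, against 77.4 and 81.0 TPM in the read-derived table. The mice are a cross with CAST, whose own bases at these sites were not examined. Which reads came from gene or copy was not tested.

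Nuclear copies of mitochondrial DNA on chromosome 1 matched mt-Nd3, mt-Nd4l and mt-Nd4. Gm10222 is identical to mt-Nd4l over 294 bases and took 1049 counts in replicate 1 and 2904 counts in replicate 2 in the gene table, or 2.64% and 7.11% of the pair. Gm28439 is identical to mt-Nd4 over 876 bases and is listed at 0 in the gene table, against 210 and 634 TPM in the read-derived table. Gm28438 differs from mt-Nd3 at a single base of 345, T3C, the capital below, and is listed at 0 in both tables.
mt-Nd3: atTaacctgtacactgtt
Gm28438: atCaacctgtacactgtt
These stretches lie at chrM:9459-9476 (plus strand) and chr1:24613102-24613119 (minus strand). The shares held by these nuclear copies were small beside the mitochondrial levels.

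Levels of a gene do not say which transcript was measured. Of the 37 nuclear members, 6 have 1 annotated transcript and 31 have more. Among these 31, the leading transcript was the same in the alignment-derived and read-derived transcript tables for 22 and another for 9. The leading transcript held under 80% of TPM in the alignment-derived table for 14 of these 31 genes. The median share of TPM in protein-coding transcripts was 96.4% over all 37 nuclear members, which include the 6 with 1 transcript, fixed at 100%.

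In 6 genes protein-coding transcripts held under 50% of TPM in the alignment-derived table. For Ndufa3 they held 7.78%, and the leading transcript Ndufa3-204, annotated as a target of nonsense-mediated decay, was at 212 and 199.9 TPM in replicates 1 and 2. For Ndufs4 they held 14.6%, and Ndufs4-204, of the same class, was at 31.1 and 37.8 TPM. For Ndufc1 they held 34.5%, with the retained-intron transcript Ndufc1-203 at 153.9 and 153.8 TPM in the alignment-derived table and at 0 in the read-derived table, which gave 97.8% to Ndufc1-202, a processed transcript. Ndufb4 had 31.8% in its protein-coding transcript and 66.6% in Ndufb4-202. Ndufa5 had 36.9%, with the processed transcript Ndufa5-204 at 63.2 and 60.3 TPM. Ndufa10 had 28.3%, with 3 transcripts of classes other than protein-coding at 22.7% to 24.3% each, and in counts its coding share was 51.3%. The leading transcript was of a class other than protein-coding in both tables for 5 of these genes, Ndufa10 being the exception. By counts in the alignment-derived table it was of such a class for 4, since Ndufb4 was then led by its coding transcript Ndufb4-201, at 51.9%. Protein-coding transcripts held under 50% of counts in these 4 only in that table. In the read-derived table their share of counts was also under 50% for Ndufb4 at 25.2%, Ndufb2 at 38.4% and Ndufa7 at 0.79%. Ndufa5, one of the 4, was at 52.2% there. The share of all genes under 50% was not computed, so this is not read as a trait of complex I genes.

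In further genes a coding transcript led with under 80% of TPM. The share was 49.6% for Ndufa11-201, 51.6% for Ndufs1-201, 57.8% for Ndufs3-201, 61.5% for Ndufb5-203 and 67.6% for Ndufv1-201. It was 76.2% for Ndufs6-201, 77.5% for Ndufb8-201 and 79.4% for Ndufa7-201. The tables differed most for Ndufa7, whose coding share was 79.4% in the alignment-derived table and 0.935% in the read-derived table. Ndufb2 was next, at 86.9% and 25.4%. Counted over coding transcripts alone, the levels of the 35 subunits ran from 11.03 TPM for Ndufs4 to 184.4 TPM for Ndufb9, and the SD of log2 TPM was 0.93 in place of 0.61. Short transcripts have effective lengths that differ several-fold between the tables, and total RNA also holds unspliced RNA. The part of either in these shares was not tested.

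Ndufv3, an accessory subunit of the N module made in a short and a long form, was clear in both tables. Ndufv3-202, of 493 bases, was at 123.5 and 114.8 TPM in replicates 1 and 2, against 10.4 and 12.4 TPM for the longer Ndufv3-201. The short form held 90.2% of TPM in the alignment-derived table and 91.2% in the read-derived table.

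**Figure D5:**
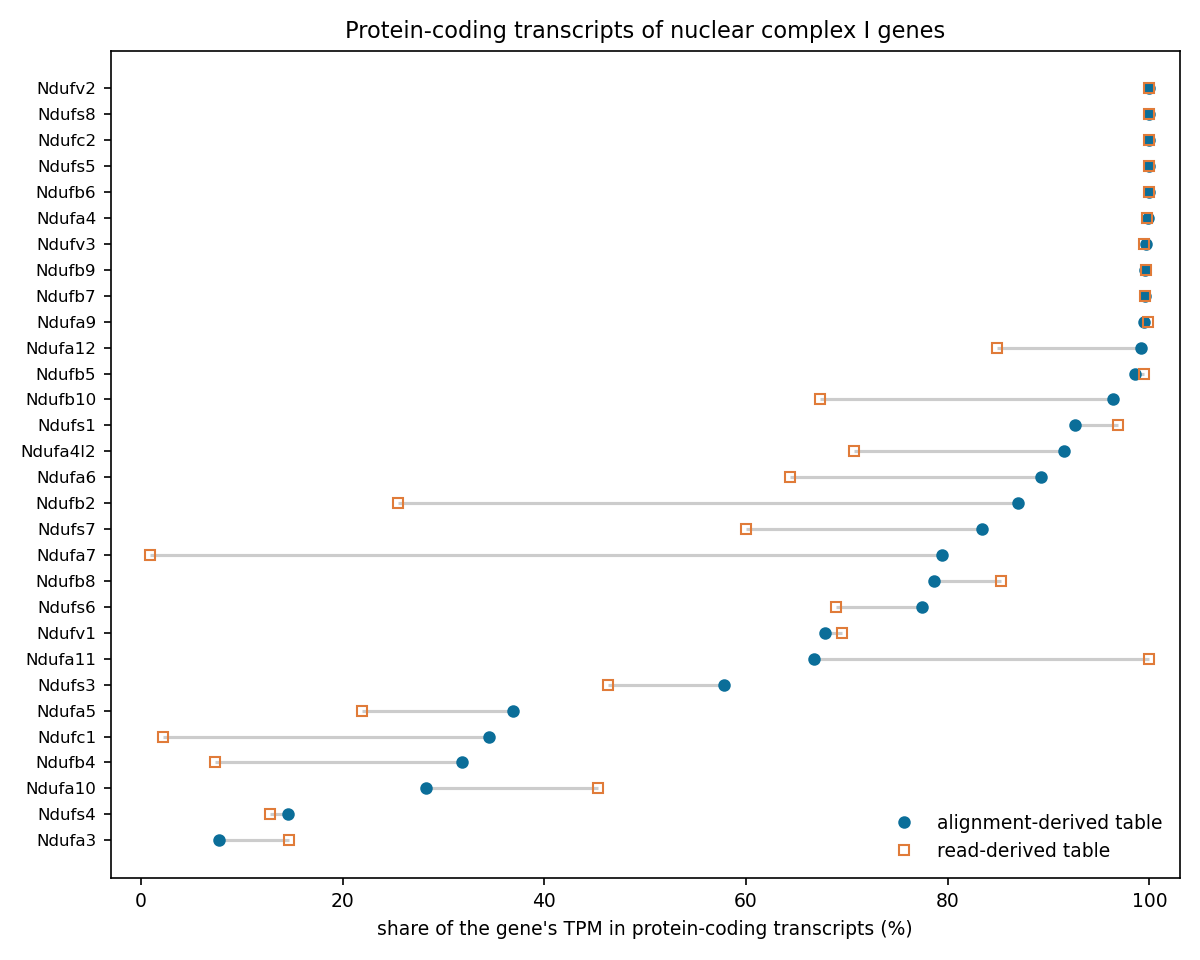
Share of TPM in protein-coding transcripts for 30 of the 31 nuclear members with more than 1 transcript, as a percentage, with the alignment-derived table as filled circles and the read-derived table as open squares joined by a line. Most genes lie above 60% in the alignment-derived table, 6 lie under 50%, and Ndufa7 and Ndufb2 show the longest lines.

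Overlapping genes add a further uncertainty where the strand was not used. Of the nuclear members, 11 share exon bases with a detected gene on the opposite strand and 1 with a detected gene on the same strand. The longest overlap was that of Ndufb5 with Mrpl47, over 616 bases, with Mrpl47 at 9.13 TPM in replicate 1. Ndufb6 shares 257 bases with Smim27, at 14.7 and 17.4 TPM. Ndufs1 shares 9 bases with Eef1b2, at 205 and 190 TPM, the most abundant of these partners. In the other cases the partner was at a lower level than the member or the shared stretch was short.

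The assembly factors of complex I, chaperones that are not part of the finished complex, were measured as a list of 16 genes. All 16 were detected, with a median of 13.03 TPM, against 99.3 TPM for the nuclear members. The highest was Tmem70 at 28.2 and 29.3 TPM in replicates 1 and 2, and the lowest Nubpl, which delivers iron-sulfur clusters, at 2.92 and 4.05 TPM. At 25% or more, 1 was higher in replicate 1, Ndufaf4 with a log2 ratio of 0.32, beside 5.38% of all genes. At the same limit 2 were higher in replicate 2, Ndufaf3 at -0.44 and Nubpl at -0.46, beside 8.63%. In mean level, each of the 16 lay below each of the 35 nuclear subunits.

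The promoters of the nuclear members were read for 6 short motifs on both strands, from 250 bases before to 50 bases after the gene start in the RefSeq table (GRCm38.p6), where 32 of 37 matched. The motifs were chosen after the levels had been seen. AAGATGGC, the core of the YY1 motif, was in 7 of 32 (21.9%), beside 3.19% of 27025 genes in the table and 5.43% of 9138 detected protein-coding genes. GCATGCGC, the core of the NRF1 motif, was in 9.38%, beside 3.05% and 6.19%. CCGGAAG, an ETS core, was in 12.5%, beside 9.93% and 20.7%. GGGCGG was in 43.75%, beside 38.2% and 70.9%, and CCAAT in 31.25%, beside 41.1% and 42.8%. TCAAGGTCA, an ESRRA site, was in 0 of 32, beside 0.466% and 0.306%. The 7 windows with the YY1 letters, in capitals, are shown because they share more than the letters.
Ndufa3: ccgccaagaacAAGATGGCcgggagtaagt
Ndufa9: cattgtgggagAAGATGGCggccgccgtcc
Ndufb8: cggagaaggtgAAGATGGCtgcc
Ndufc1: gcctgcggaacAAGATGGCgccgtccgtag
Ndufs4: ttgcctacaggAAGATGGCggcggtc
Ndufs6: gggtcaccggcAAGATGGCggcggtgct
Ndufs7: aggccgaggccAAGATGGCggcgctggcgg
All 7 are on the strand of the gene and begin 22 to 38 bases after the gene start, and in all 7 the ATG inside the letters is an annotated start codon. The median level was 84.1 TPM for the 7 genes with the letters and 105.3 TPM for the 25 without. A match of letters is a description of the sequence and does not show binding.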

How the data were processed

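Total RNA-seq of 2 adrenal gland libraries of 1 group was analysed from the deposited tables. The authors deposited, per the file headers, an expected count and TPM for genes and, from the same alignments, for transcripts (RSEM column names), and an estimated count and TPM for transcripts straight from reads (kallisto column names). The text beside the deposited files names mm10 and GENCODE M21. Tools, versions, filters and strand use: not given in the sources used here. Deposited bounds of TPM and posterior SD of the count were read as a signal, and the level of the bounds is not stated. TPM sums to a fixed total over all entries, small RNAs included, so it depends on what a table counts, and expected counts divide reads that fit several genes.

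Levels are means of the libraries. Read-derived levels were summed over transcripts. Ratios used a pseudocount of 0.1 TPM between replicates, for genes with 200 or more summed counts, and of 1 TPM between quantifications. edgeR 4.0.16 (TMM) and DESeq2 1.42.0 gave size factors only, from expected counts rounded to whole numbers. No test between samples was made, and depth sets counting error only. The chi-square of counts between libraries per degree of freedom was 21.5 over 17181 genes, so they are separate libraries. The step that computes ratios was checked on simulated counts with known folds. Copies were found with blastn 2.17.0 on GENCODE M21 transcripts. Python 3.11.15 with pandas 2.3.3 was used. All members were to be named, in full where under 1 TPM, past the folds, at the ends of a module or with a leading transcript under 80% of TPM. The values of 1 gene and 1 sequence are not reported here. Of the lists 2 symbols had no record. The members and lists were chosen with earlier results of these data known.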

Additional observations from a re-analysis of the deposited data

How the results depend on the processing

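The 44 members stayed detected at 0.5 TPM, at 5 TPM and in the read-derived table. Of 41 alternative values, 25 moved by less than the limit set for them and 16 by more; none turned direction. Rescaling TPM over nuclear protein-coding genes gave a nuclear median of 318.2 TPM. Rescaling over all protein-coding genes, mitochondrial ones included, gave a mitochondrial median of 12265 TPM. These medians are on different scales and their ratio is not read. The read-derived table gave 195.3 and 5364 TPM, a mitochondrial over nuclear ratio of 27.5, in place of 46.3. The low level of mt-Nd4l there, 121 TPM, moved the mitochondrial median from mt-Nd2 to mt-Nd3. The same table gave an SD of log2 TPM among subunits of 0.58. That SD was 0.58 over genes with a leading transcript over 80% and lay between 0.606 and 0.613 with either replicate left out. Of alternatives added after seeing the data, counting coding transcripts only gave a nuclear median of 78.3 TPM and an SD of 0.93. Adding the TPM of Ndufb4c, which is per its own length, to that of Ndufb4 gave 105.3 TPM and 0.58. Members 25% or more higher in either replicate numbered 1 with TMM and 1 with DESeq2 size factors, Ndufa4l2 each time. In the read-derived table they numbered 2, Ndufa4l2 and mt-Nd3. Beside them, 11.3% of all genes were that far apart with TMM, 11.3% with DESeq2 size factors and 15.9% in the read-derived table. Members past 2-fold between quantifications fell to 2 relative to the median of all genes, 1 in each direction. The shares of all genes were 2.38% higher in the gene table and 0.774% higher in the read-derived table. No paired analysis was possible because there is 1 group and no test. The lowest summed count of a nuclear member was 592; copies, short transcripts and the choice of table also limit these levels.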

Other observations

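Nuclear genes that act on mitochondrial transcripts were measured as a further list of 7, all detected, with a median of 18.7 TPM. Slirp, which with Lrpprc stabilises mitochondrial messengers, was the highest at 55.5 and 48.5 TPM in replicates 1 and 2, and Lrpprc was at 24.0 and 24.95 TPM. Tfb1m was the lowest at 4.10 and 4.89 TPM. None of the 7 was 25% or more higher in either library. Of 7 regulators of respiratory genes, with a median of 6.34 TPM, Yy1 was the highest at 23.5 and 25.5 TPM, and Ppargc1a, a coactivator abundant in brown fat, the lowest at 3.49 and 2.53 TPM. Ppargc1a was the only one past that limit, with a log2 ratio of 0.45. Of 6 brown fat markers 4 were higher in replicate 1, with Ucp1 at 319.7 and 257.2 TPM and Cidea, higher in replicate 2, at 139.0 and 152.2 TPM, and their part in the level of Ppargc1a was not tested. Atp5k, of complex V, was the only nuclear subunit of complexes II to V listed here past that limit, at 161 and 113.5 TPM, a log2 ratio of 0.51.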
